A study of Mus musculus with 6 samples.

Results

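The mitochondrial biogenesis regulators are 10 genes whose products raise or carry out the making of new mitochondria. They were chosen by name, as the probes whose RefSeq accession belongs to Ppargc1a, Ppargc1b, Esrra, Nrf1, Gabpa, Tfam, Tfb2m, Polrmt, Polg or Twnk. All 10 had a probe and all 10 were tested, among 17136 genes tested in all, and 22 probes were named for them. RNA of whole kidney was labelled with Cy3 and hybridised to 6 Agilent arrays, 3 labelled WT and 3 labelled Pck1-CKO, all from C57BL/6J mice aged 32 weeks.

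In Pck1-CKO mice the gene for cytosolic phosphoenolpyruvate carboxykinase, an enzyme of gluconeogenesis, is floxed on both alleles and γGT-Cre is meant to delete it in the proximal tubule (Pck1 flox/flox/γGT-Cre tg/+). WT mice were littermates matched for age and sex. That breeding gives controls of Pck1 flox/+/γGT-Cre tg/+, Pck1 flox/+ or Pck1 flox/flox, and the labels do not say which of these a WT array holds. By that breeding both groups carry floxed alleles, and some controls can carry the Cre. Whole kidney also holds the cell types in which the Cre is not active. Nothing in the labels ties each array to its own mouse, and the p-values below thus describe the spread of these samples alone, which may be technical.

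PGC-1α (Ppargc1a) and PGC-1β (Ppargc1b) are coactivators, which bind transcription factors rather than DNA and raise the output of their targets. They work through the nuclear receptor ERRα (Esrra) and through NRF-1 (Nrf1) and the ETS factor GABP, whose DNA-binding subunit is Gabpa. Those factors drive nuclear genes of the respiratory chain and of Tfam, Tfb2m and Polrmt, which transcribe mitochondrial DNA, and Polg and Twnk replicate it. The proximal tubule is dense in mitochondria and depends on them for the energy of reabsorption.

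Letters that NRF-1, GABP and ERRα are known to read were searched, as 3 motifs, on both strands in RefSeq windows of the GRCm38.p6 build, from 250 bases before to 50 after each start. Of the 10 genes 9 had a window. The NRF-1 core CGCATGC was found for 4 of the 9, against 4.01% of all 27025 genes with a window, and the letters CCGGAAG, read by GABP and other ETS factors, for 5 of the 9, against 9.93%. The letters AAGGTCA, read by ERRα and other nuclear receptors, were found for 1 of the 9 (Twnk), against 5.38%. The windows of Ppargc1a and Nrf1 held none of the 3 motifs. A match describes the letters and is not a measured binding site. The stretches below are examples of regulators whose start regions hold letters that another regulator reads, 5′ to 3′ on the strand of each gene, with the motif in capitals. In Esrra (chr19:6921810-6921868, minus strand) the NRF-1 core lies on the opposite strand, 34 bases before the start, and GCATGCG is its complement read backwards.
Esrra: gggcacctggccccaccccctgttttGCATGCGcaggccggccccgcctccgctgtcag
In Gabpa (chr16:84835090-84835148, plus strand) and Tfb2m (chr1:179546232-179546290, minus strand) the core and the base after it read the same on both strands, and both strands match in overlapping letters.
Gabpa: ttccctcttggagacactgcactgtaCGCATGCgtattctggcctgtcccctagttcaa
Tfb2m: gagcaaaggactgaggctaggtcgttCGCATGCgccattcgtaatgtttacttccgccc
Polrmt holds both the NRF-1 core (chr10:79746681-79746739, minus strand) and, on the opposite strand, the ETS letters as CTTCCGG (chr10:79746592-79746650).
Polrmt, NRF-1 core: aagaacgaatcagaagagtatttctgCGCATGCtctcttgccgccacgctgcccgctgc
Polrmt, ETS letters: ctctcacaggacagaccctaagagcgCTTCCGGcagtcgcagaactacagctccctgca
In Tfam (chr10:71238059-71238117, minus strand) and Polg (chr7:79466279-79466337, minus strand) the ETS letters lie 47 and 38 bases before the start.
Tfam: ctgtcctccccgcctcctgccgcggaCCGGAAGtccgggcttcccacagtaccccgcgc
Polg: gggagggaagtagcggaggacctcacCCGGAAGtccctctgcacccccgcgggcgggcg
Twnk, in the windows of its RefSeq starts on the plus strand, holds AAGGTCA (chr19:45005514-45005572) and, on the opposite strand, the ETS letters (chr19:45006466-45006524), which match once more further from the start.
Twnk, nuclear receptor letters: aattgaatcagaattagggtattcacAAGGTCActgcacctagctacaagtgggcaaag
Twnk, ETS letters: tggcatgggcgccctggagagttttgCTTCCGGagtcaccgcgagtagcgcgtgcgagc
The ETS letters of Gabpa are not printed.

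Signals are given as the log2 of the processed signal relative to the 75th percentile of each array, and a change is Pck1-CKO minus WT on that log2 scale. Between 37116 and 38708 of 56605 probes lay well above background on an array. The signal of the targeted gene was not lower in the Pck1-CKO arrays. Pck1 read 6.29, 6.32 and 5.63 on the WT arrays and 6.44, 6.60 and 6.90 on the Pck1-CKO arrays, a change of 0.56 ± 0.22 (SE, n = 3 per group) that did not pass (limma adjusted p = 0.152). It had 1 probe, and where that probe lies with respect to the deletion is not known here, so its values check nothing about the labels. Of 10 proximal tubule markers none passed, among them Slc34a1, Lrp2 and Cubn. The summed linear signal of the 10, in which the brightest weigh most, ran from 1940 to 2039 in WT and from 1942 to 2030 in Pck1-CKO. Their median log2 signal was 6.97, 6.96 and 7.03 on the WT arrays. It was 7.15, 7.18 and 7.08 on the Pck1-CKO arrays, without overlap. Of the 10, 1 was higher without overlap (Slc22a6, 0.30) and 1 lower (Cubn, -0.23), where 21.9% and 16.4% of all genes were. Markers of fat were higher in Pck1-CKO. Of 9 brown fat markers tested 5 rose, and of 8 general adipocyte markers 2 rose, where 4.34% of all genes did. The summed linear signal of the brown fat markers was 19.8 to 22.5 in WT and 51.1 to 56.6 in Pck1-CKO. Cox7a1, the brightest of them, made up most of the WT sums and hardly differed. It read 4.20, 4.20 and 4.16 on the WT arrays and 4.20, 4.21 and 4.28 on the Pck1-CKO arrays. Prdm16 did not rise either (-0.042), and in the other 7 all Pck1-CKO arrays lay above all WT arrays, as in 21.9% of all genes. The sums thus hide much of the difference in those 7. Ucp1 read -3.59, -0.47 and -0.70 on the WT arrays against 3.84, 3.73 and 3.37 on the Pck1-CKO arrays. In 7 of the 8 general adipocyte markers all Pck1-CKO arrays also lay above all WT arrays, and Lep hardly differed (0.037). The summed linear signal of the general adipocyte markers was 16.7 to 36.2 in WT and 92.8 to 148.6 in Pck1-CKO. Brown fat is rich in PGC-1α. Lymphocyte markers were lower in Pck1-CKO. All 7 tested had a negative change, 6 with groups that did not overlap, where 16.4% of all genes were lower without overlap. Of the 7, 2 fell, where 3.70% of all genes did. Gzma (granzyme A) fell by 1.15 and Cd79b, a B cell receptor subunit, by 0.44 on the log2 scale. The summed linear signal of the 7 was 3.06 to 3.66 in WT and 2.29 to 2.48 in Pck1-CKO. Of the markers of later nephron segments, Aqp2 rose and Slc12a3 fell. The part of these cell types in the values below was not tested. In whole kidney RNA, fewer cells of a type and less RNA per cell cannot be told apart. The arrays lay on 1 slide, the WT arrays in its row 1 and the others in its row 2, and the effect of genotype cannot be told apart from that of the row.

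The arrays labelled Pck1-CKO were set against the WT arrays. None of the 10 regulators passed the test, and by the brightest probe of each all 10 differed by less than 1.16-fold. By limma with Benjamini-Hochberg adjustment over all genes tested, 0 of 10 were called at an adjusted p under 0.05, where 8.04% of all genes were called, 4.34% higher and 3.70% lower. Before adjustment 3 had a p under 0.05 (2 higher, 1 lower in Pck1-CKO), as did 31.2% of all genes. In 4 of the 10 the groups did not overlap, with Esrra, Polrmt and Polg higher and Ppargc1a lower in Pck1-CKO, against 38.3% of all genes, 21.9% higher and 16.4% lower. The median change of the 10 was 0.057 against 0.0091 for all genes, and the median size of change was 0.11 against 0.12. The 95% intervals of all 10, each from the brightest probe of its gene, lay between -0.38 and 0.37. Any change larger than 1.31-fold lay outside every one of these intervals. They do not cover the other tested probes, whose changes ran from -0.25 ± 0.07 (Ppargc1a) to 0.31 ± 0.07 (Nrf1).

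**Figure D1:**
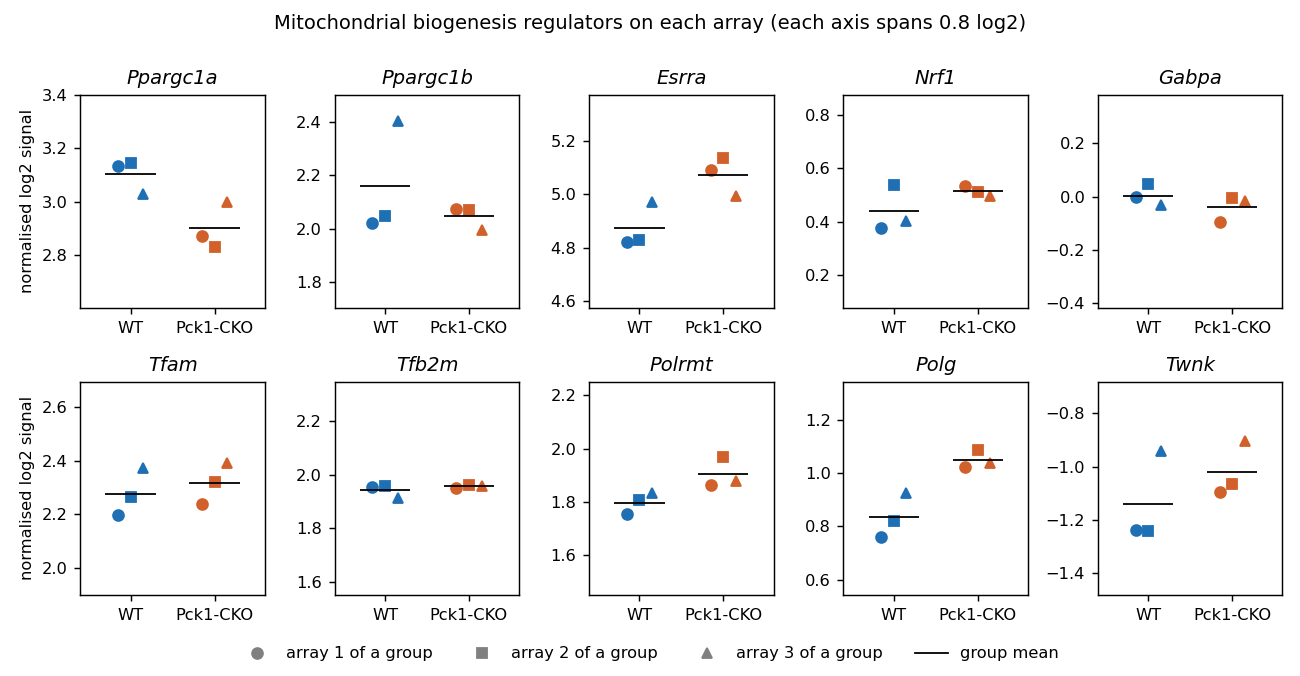
Normalised log2 signal of the 10 regulators on each array, 1 panel a gene, with WT in blue, Pck1-CKO in orange and black lines for group means. Ppargc1a, Esrra, Polrmt and Polg show groups that do not overlap, and in the other 6 panels the groups overlap.

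Among the coactivators, Ppargc1a had lower values in Pck1-CKO. It read 3.14, 3.15 and 3.03 on the WT arrays and 2.87, 2.83 and 3.0 on the Pck1-CKO arrays. All 3 WT arrays lay above all 3 Pck1-CKO arrays, with WT 3 and Pck1-CKO 3 close together. The change of -0.20 ± 0.06 (SE, n = 3 per group), 1.15-fold, did not pass (limma adjusted p = 0.097), with a 95% interval from -0.36 to -0.047. The second Ppargc1a probe gave 1.36, 1.27 and 1.15 on the WT arrays and 0.995, 0.995 and 1.04 on the Pck1-CKO arrays, again without overlap. Its change was -0.25 ± 0.07, with limma adjusted p = 0.0863 over all probes.

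Ppargc1b, the related coactivator, read 2.02, 2.05 and 2.40 on the WT arrays and 2.07, 2.07 and 1.996 on the Pck1-CKO arrays. The groups overlapped, and WT 3 stood above the other 5 arrays. The change was -0.11 ± 0.11 (interval -0.38 to 0.16, limma adjusted p = 0.524), and it was 0.011 without WT 3. On the second Ppargc1b probe WT 3 was again the highest array, at 0.53 against 0.063 to 0.35 on the others, and the change was 0.034 ± 0.12. The values of this gene therefore turned on WT 3, and its 2 probes differed in sign.

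Of the transcription factors, Esrra ran opposite to Ppargc1a. ERRα, its product, is an orphan nuclear receptor and a main partner of PGC-1α. Esrra read 4.82, 4.83 and 4.97 on the WT arrays and 5.09, 5.14 and 4.99 on the Pck1-CKO arrays, with all Pck1-CKO arrays above all WT arrays. Its change of 0.20 ± 0.06 (interval 0.042 to 0.36) did not pass (limma adjusted p = 0.103), and the gene had 1 probe. The arrays WT 3 and Pck1-CKO 3 lay next to each other in both genes. Pck1-CKO 2 was the lowest array for Ppargc1a and the highest for Esrra. Over all probes kept, Pck1-CKO 3 was also the Pck1-CKO array most like each WT array. Its Pearson's r to them was 0.9916, 0.9937 and 0.9932, against 0.9895 to 0.9915 for Pck1-CKO 1 and Pck1-CKO 2. The place of Pck1-CKO 3 is thus not particular to these genes, and how many other genes ran opposite to Ppargc1a was not counted.

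**Figure D2:**
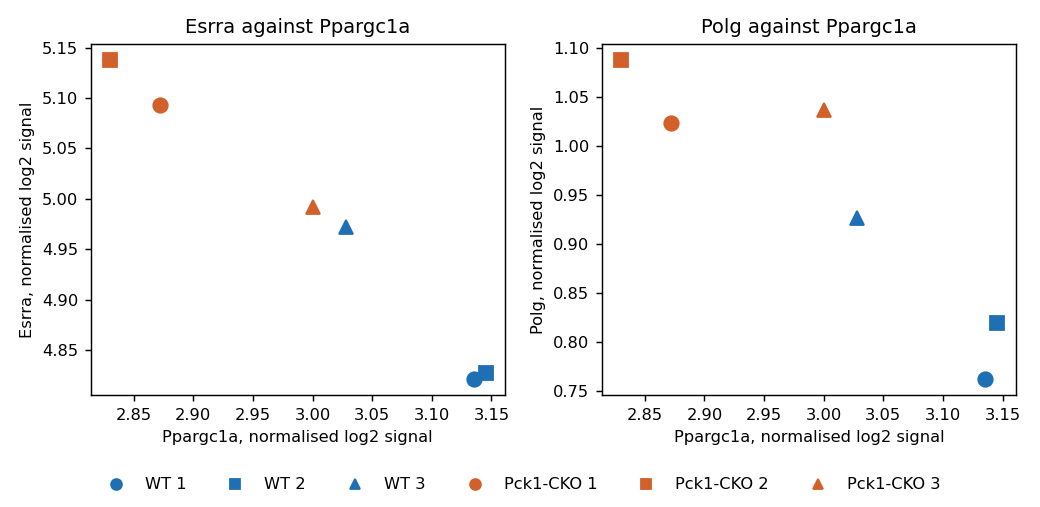
Normalised log2 signal of Esrra (left) and Polg (right) against that of Ppargc1a, 1 point an array. WT 3 (Ppargc1a 3.03) and Pck1-CKO 3 (3.0) lie along the Ppargc1a axis between the other WT and the other Pck1-CKO arrays, and apart from WT 1 and WT 2, which nearly coincide, arrays with less Ppargc1a signal have more Esrra signal.

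Nrf1 read 0.38, 0.54 and 0.40 on the WT arrays and 0.53, 0.51 and 0.50 on the Pck1-CKO arrays. The groups overlapped, since WT 2 was the highest of all 6 arrays. The change was 0.076 ± 0.05 (interval -0.059 to 0.21, limma adjusted p = 0.384). It was 0.045 without WT 1, 0.12 without WT 2, and 0.14 as the mean of the 3 tested probes. Of the other Nrf1 probes, which carry accessions of different transcripts, a dim one changed by 0.31 ± 0.07 with groups that did not overlap (limma adjusted p = 0.0701 over all probes), another by 0.027 ± 0.05, and the fourth was below the detection call of all 6 arrays. Gabpa read -0.0028, 0.046 and -0.033 on the WT arrays and -0.094, -0.0066 and -0.018 on the Pck1-CKO arrays, with overlapping groups. Its change was -0.043 ± 0.05 (interval -0.15 to 0.069, limma adjusted p = 0.552). The other Gabpa probes gave -0.17 ± 0.05 and -0.14 ± 0.08, so all 3 had a negative change, with a mean of -0.12 (limma adjusted p = 0.174). On the probe with -0.17 the groups did not overlap (limma adjusted p = 0.119 over all probes), and on the probe with -0.14 they did. The change of the brightest Gabpa probe was -0.016 without Pck1-CKO 1 and -0.022 without WT 2, and its sign turned to 0.033 when arrays were scaled to their median.

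Among the genes that transcribe mitochondrial DNA, Tfam and Tfb2m had the smallest changes of the 10. Tfam, which packages that DNA and binds its promoters, read 2.20, 2.27 and 2.37 on the WT arrays and 2.24, 2.32 and 2.39 on the Pck1-CKO arrays. The groups were interleaved, and the change was 0.039 ± 0.07 (interval -0.12 to 0.20, limma adjusted p = 0.720). Its second probe gave 0.11 ± 0.07. Tfb2m, the promoter-melting partner of the polymerase, read 1.95, 1.96 and 1.91 on the WT arrays and 1.95, 1.96 and 1.96 on the Pck1-CKO arrays. Its change of 0.014 ± 0.04 had the narrowest interval of the 10 genes, -0.075 to 0.10 (limma adjusted p = 0.821), and its second probe gave -0.0029. The signs of Tfam and Tfb2m turned to -0.0066 and -0.025 with quantile normalization and to -0.049 and -0.00096 with normexp background correction. Polrmt, the mitochondrial RNA polymerase, read 1.75, 1.81 and 1.83 on the WT arrays and 1.86, 1.97 and 1.88 on the Pck1-CKO arrays. All Pck1-CKO arrays lay above all WT arrays, and the change of 0.11 ± 0.05 (interval -0.013 to 0.23) did not pass (limma adjusted p = 0.196).

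Of the replication genes, Polg had the lowest p of the 10. It encodes the catalytic subunit of the mitochondrial DNA polymerase. Polg read 0.76, 0.82 and 0.93 on the WT arrays and 1.02, 1.09 and 1.04 on the Pck1-CKO arrays, without overlap. The change was 0.21 ± 0.06 (interval 0.077 to 0.35, limma adjusted p = 0.0683). Without WT 3, the WT array nearest to Pck1-CKO, the change of Polg was 0.26 and passed (limma adjusted p = 0.0440), and without any of the other 5 arrays it did not (0.105 to 0.215). The fit without WT 3 called 7.98% of all genes and that without Pck1-CKO 3 called 8.93%. Those without WT 1, WT 2, Pck1-CKO 1 or Pck1-CKO 2 called only 0.146% to 0.408%. As the mean of its 4 tested probes the change of Polg was 0.099 (limma adjusted p = 0.269). Of its other probes, 2 moved the same way, by 0.18 ± 0.05 and 0.20 ± 0.05, and the dimmest gave -0.20 ± 0.12. Twnk, the helicase that opens mitochondrial DNA ahead of the polymerase, read -1.24, -1.24 and -0.94 on the WT arrays and -1.09, -1.07 and -0.90 on the Pck1-CKO arrays. WT 3 lay above 2 of the 3 Pck1-CKO arrays, and the change was 0.12 ± 0.10 (interval -0.13 to 0.37, limma adjusted p = 0.459). Leaving out 1 array moved the change of Twnk to 0.22 without WT 3, 0.072 without WT 1, 0.070 without WT 2 and 0.062 without Pck1-CKO 3.

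**Figure D3:**
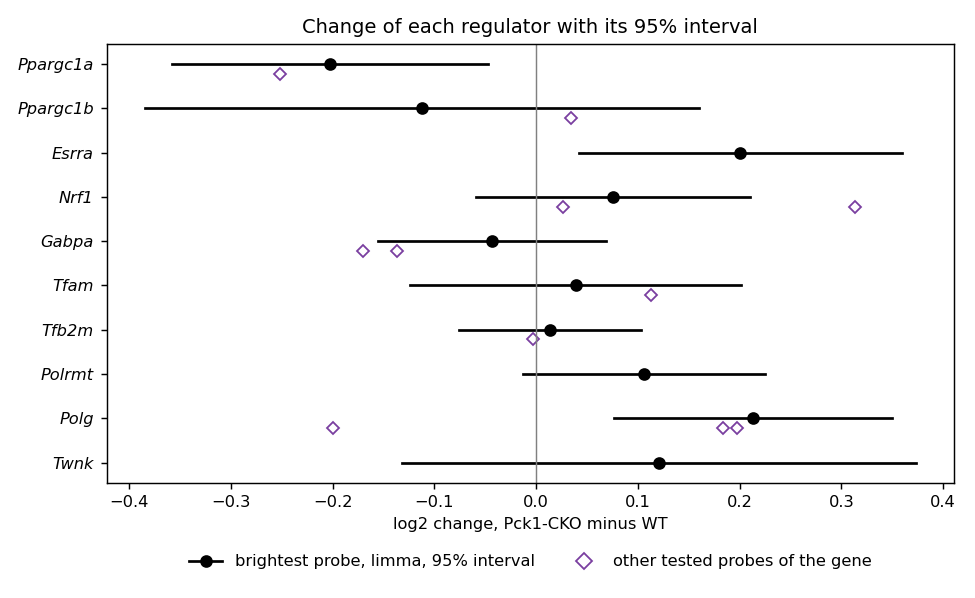
Log2 change of each regulator (black, brightest probe, with its 95% interval from limma) and of its other tested probes (open diamonds). Intervals of Ppargc1a, Esrra and Polg leave out 0, and 1 probe each of Polg, Ppargc1b and Tfb2m lies on the other side of 0 from the probe that stands for the gene.

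Probe by probe, 0 of 21 tested probes of these genes passed over all probes (limma), where 4.29% of 38366 probes did, with 13 positive and 8 negative changes. Whether single regulators passed depended on the model. With a trended, robust variance prior, which called 16.5% of all genes, Polg and Esrra passed as higher and Ppargc1a as lower. Weighting the arrays called 34.4% of all genes and 4 of the 10, these 3 and Polrmt. Scaling to the array median, which moved the median of all genes from 0.0091 to 0.085, called 17.5% of all genes and 2 of the 10, Polg and Esrra, and split all calls into 2434 higher and 560 lower instead of 743 and 634.

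**Figure D4:**
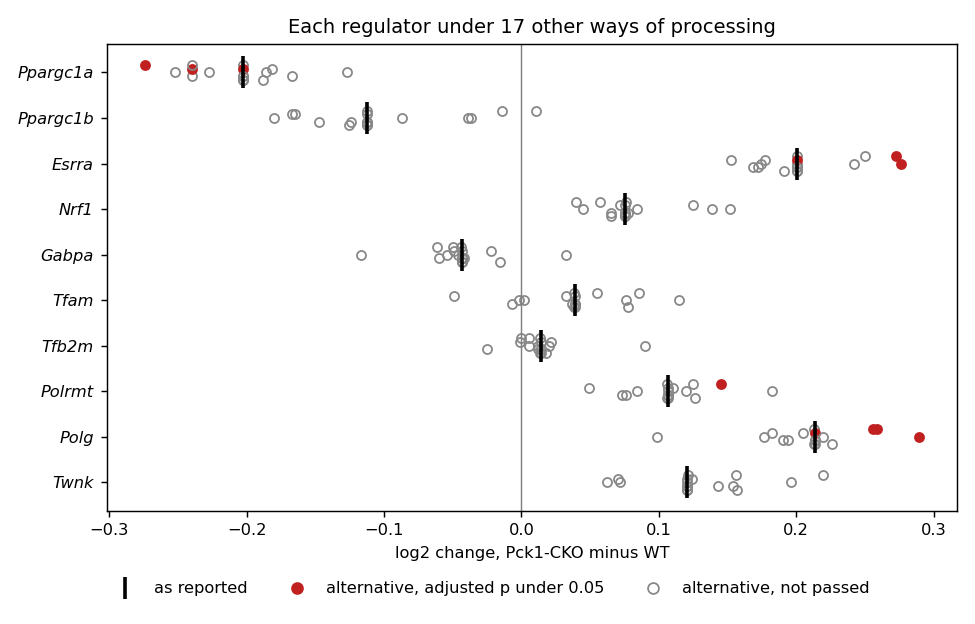
Log2 change of each regulator as reported (black bar) and under 17 other ways of processing or with an array left out (circles, filled red at an adjusted p under 0.05). Ppargc1a stays between -0.27 and -0.13 and Esrra between 0.15 and 0.28, whereas Gabpa, Tfam, Tfb2m and Ppargc1b reach both sides of 0.

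The rest of the pathway was described through 5 lists of textbook genes. Of 115 genes listed, 99 were tested. The 15 genes of mitochondrial DNA itself had no probe with a name here and were not analysed, nor was Cox5b. Of the 99, 4 were called higher and 2 lower by limma, 6.06%, against 8.04% of all genes, and the median change was 0.032. None of the 6 passed without WT 1, without WT 2, without Pck1-CKO 1 or without Pck1-CKO 2. Those fits called only 0.408%, 0.204%, 0.146% and 0.169% of all genes, so the loss is not particular to these 6.

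Among 30 partners, receptors and signalling genes around PGC-1, 2 rose and 0 fell, with 21 positive and 9 negative changes and a median of 0.053. Pparg, the nuclear receptor that directs fat cell formation and the first known partner of PGC-1α, rose by 0.98 ± 0.10 (limma adjusted p = 0.0154). It read -0.61, -0.54 and -0.56 on the WT arrays and 0.36, 0.24 and 0.63 on the Pck1-CKO arrays. The fat markers above were higher in the same arrays, and their part in the change of Pparg was not tested. Kat2a, the acetyltransferase GCN5 that acetylates and restrains PGC-1α, rose by 0.27 ± 0.05 (limma adjusted p = 0.0395), from 0.60, 0.69 and 0.57 to 0.84, 0.91 and 0.91. Its second probe gave 0.20 ± 0.08, and Kat2a did not pass with quantile normalization (limma adjusted p = 0.0524) or as the mean of both probes (0.0574). Pprc1, the third coactivator of the PGC-1 family, is named here after its values were seen, and its change of 0.53 ± 0.11 had limma adjusted p = 0.0501. Sirt1, Prkaa1 and Prkaa2, the deacetylase and kinase subunits that act on PGC-1α, had changes of 0.064, 0.11 and 0.038, and the partner subunits Gabpb1 and Gabpb2 of GABP 0.0081 and 0.043, none of which passed.

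Of 20 mitochondrial transcription and RNA factors, 1 rose and 0 fell, with a median of 0.012. Trmt10c, a subunit of the complex that cuts tRNA ends out of mitochondrial transcripts, rose by 0.31 ± 0.06 (limma adjusted p = 0.0379). It read -1.01, -0.97 and -1.15 on the WT arrays and -0.72, -0.72 and -0.75 on the Pck1-CKO arrays. Its partners Hsd17b10 and Prorp, named for that reason after their values were seen, had changes of 0.0045 and 0.086.

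Of 20 genes of mitochondrial DNA upkeep, 1 rose and 1 fell, with a median of 0.045. Exog, a mitochondrial nuclease, rose by 0.86 ± 0.17 (limma adjusted p = 0.0417), from -4.41, -4.62 and -4.33 to -3.28, -3.90 and -3.60. It was dim, its second probe gave 0.18 ± 0.11, and with normexp the change was 0.30 and did not pass (limma adjusted p = 0.0599). Slc25a36, a carrier of pyrimidine nucleotides into mitochondria, fell by 0.39 ± 0.08 on the log2 scale (limma adjusted p = 0.0446). With arrays scaled to their median the change of Slc25a36 was -0.31 and did not pass (limma adjusted p = 0.0550). It read 1.34, 1.31 and 1.46 on the WT arrays and 0.91, 0.91 and 1.12 on the Pck1-CKO arrays. Polg2, the accessory subunit of the Polg polymerase, had a change of -0.14 and did not pass.

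Of 29 tested respiratory and fuel genes that these regulators drive, 0 rose and 1 fell, with 15 positive and 14 negative changes and a median of 0.0014. Fndc5, a PGC-1α target that encodes the precursor of irisin, fell by 0.57 ± 0.10 (limma adjusted p = 0.0359). It read -0.13, 0.074 and -0.18 on the WT arrays and -0.74, -0.72 and -0.48 on the Pck1-CKO arrays, without overlap. Cycs (cytochrome c), Cs (citrate synthase) and Acadm (medium-chain acyl-CoA dehydrogenase), classical targets of NRF-1 and ERRα, had changes of 0.10, 0.032 and 0.036, none of which passed.

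**Figure D5:**
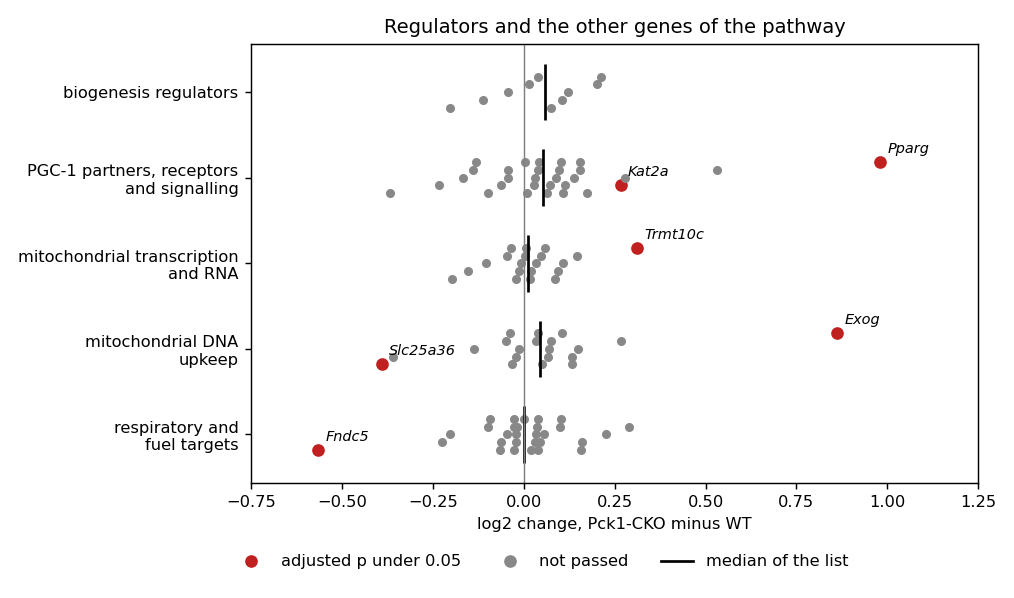
Log2 change of the tested genes of each list, red where the adjusted p was under 0.05, with a black line at the median of the list. The 10 regulators lie between -0.20 and 0.21, and the 6 genes that passed are named.

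The genes whose signal over the 6 arrays was most like that of Polg, by Pearson's r, were Pmpcb (r = 0.9996), Hspb1 (r = 0.998) and Rrp9 (r = 0.998). Such values were not particular to these genes, since 35 of the 17136 genes tested had an r above 0.99 to Polg over the 6 arrays. Pmpcb, a subunit of the peptidase that trims imported mitochondrial proteins, had a change of 0.086, and Hspb1, a small heat shock protein, of 0.37, and neither passed.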

How the data were processed

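Total RNA of whole kidney from 6 samples was hybridised to 1-colour Agilent arrays, 1 per sample. The deposited scanner files hold linear intensity, written by version 10.7.1.1 of Agilent Feature Extraction. The value table that the authors deposited with the series holds a linear ratio, found here to be the processed signal over 1 factor per array (column medians 0.105, 0.104 and 0.103 in WT, 0.1, 0.098 and 0.099 in Pck1-CKO).

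Outlier-flagged spots were dropped, replicate spots averaged, and log2 processed signals set relative to the 75th percentile of their array. Names came from unversioned RefSeq accessions (GRCm38.p6 table), which matched 34675 of 56605 probes. A probe had to be well above background on 3 or more of the 6 arrays, and the brightest one stood for its gene. Tests were 2-sided, by limma 3.58.1 (lmFit, eBayes; R 4.3.3), with Benjamini-Hochberg adjustment over all 17136 genes and a threshold of 0.05. The number of arrays limits the precision. The fit was tested on simulated data, with 50 genes changed by each of 4 sizes on the log2 scale. It called 0% of those changed by 0.1, 0% by 0.2, 46% by 0.5 and 72% by 1. Far fewer genes changed there than were called in the data, which makes the adjustment stricter. Named genes are the 10 members, Pck1, list genes that passed (at most 5 a direction), 3 markers a list and the 3 genes most like the member with the lowest p. Others were chosen after their values were seen. The members and lists were chosen with earlier results of these data known. Alternatives covered normalization, background correction, value source, filter, probe choice, variance model, array weights, flags, a replicate block and left-out arrays. Muscle and adrenal markers were also measured, and 1 marker of the list of other nephron cells is not reported here. Summed linear signals ran from 0.281 to 0.581 in WT and 0.322 to 0.390 in Pck1-CKO for muscle, and from 0.813 to 0.839 and 0.767 to 0.804 for adrenal.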

Additional observations from a re-analysis of the deposited data

How the results depend on the processing

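Leaving out 1 array at a time gave 16 to 779 genes called higher and 9 to 806 lower, 0 to 1 regulators higher and 0 to 0 lower, and 0 to 6 pathway genes higher and 0 to 3 lower, against 743, 634, 0, 0, 4 and 2 as reported. Scaling to the array median called 2434 genes higher, 2 regulators higher, and 13 pathway genes higher and 1 lower. With no filter on dim probes 61 genes were higher and 81 lower, with 1 pathway gene higher and 0 lower, over more genes tested. Probes above background on all 6 arrays gave 7 pathway genes higher. With a trended and robust prior 1682 genes were higher and 1149 lower, with 2 regulators higher and 1 lower and 7 pathway genes higher. With array weights the numbers were 3285 and 2614 genes, 3 and 1 regulators, and 19 and 6 pathway genes. Normexp, which called 10.9% of all genes, called 1 regulator lower, Ppargc1a. With the sample number as a replicate block 3 genes were higher and 1 lower, and limma called 0 regulators and 0 pathway genes in either direction. Before adjustment, 1 regulator was higher and 0 lower at a p under 0.05, which 5167 of the 17136 genes also had. The numbers were not taken as pairs, since deviations of same-numbered arrays correlated at -0.00097, -0.11 and -0.023.

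The sign of the change turned for Ppargc1b without WT 3 (0.011), for Gabpa with median scaling (0.033), for Tfam with quantile normalization (-0.0066), normexp (-0.049) and without WT 1 (-0.0020), and for Tfb2m with quantile normalization (-0.025), normexp (-0.00096) and without WT 3 (-0.00013). Over the arrays left out in turn these changes ran from -0.18 to 0.011 for Ppargc1b, -0.0020 to 0.086 for Tfam and -0.00013 to 0.022 for Tfb2m. The causes were not tested. Ppargc1a, Esrra, Nrf1, Polrmt, Polg and Twnk kept their sign under the 17 alternatives. Their adjusted p ran from 0.0119 to 0.271 for Ppargc1a, 0.0119 to 0.283 for Esrra and 0.0105 to 0.269 for Polg. With 3 arrays a group, changes of the size seen here lie near or below what the test calls.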
